A study of Mus musculus with 9 samples.

Results

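The endoplasmic reticulum folding and stress response is a set of 40 listed mouse genes that was chosen by name, by role and by a level threshold, a mean of 1 FPKM or more over all 9 libraries. FPKM, the deposited unit, is fragments scaled by transcript length and by library size. Each listed symbol matched 1 row of the deposited table, and 39 of the 40 reached the threshold among 14588 of 35397 genes. The member just outside it was Chac1 at 0.998 FPKM, and the lowest ones inside it were Edem1 at 3.05 FPKM and Derl2 at 3.19 FPKM. The threshold used levels over both groups together. It did not use the difference between the groups, although the list itself was drawn up with results of these data known. By role, 23 members are chaperones and folding enzymes, 7 act in degradation, 4 are sensors or their effector, and 6 belong to the ATF4 branch, Chac1 included.

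RNA came from retinas of wild-type mice (5 libraries, named here wild type 1 to 5) and of db/db mice (4 libraries, named db/db 1, 3, 4 and 5). The db/db mouse carries a mutation of the leptin receptor gene Lepr and becomes obese and diabetic. The labels give genotype and tissue, and no treatment, age or background strain. Whether the libraries of a group are separate mice is not said either, and each p-value therefore reflects only how much the libraries differ among themselves, which may be technical. The libraries held 36.6 to 47.9 M reads, as recovered from the steps of the values. The cone markers Opn1sw, Opn1mw, Arr3 and Gnat2 summed to 444 to 505 FPKM over the 9 libraries, so retina was present in each.

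Library db/db 1 stood apart from the other 8. Its FPKM values summed to 311179, against 252832 to 268139 in the others. Of 12 lists of cell type markers its summed level, not scaled to this total, was above all other libraries in 7 and below them in 2. For skeletal muscle (4 of 4 markers measured at a mean of 1 FPKM or more) the sum was 143 FPKM, against 4.14 to 5.86 FPKM in wild type and 5.76 to 18.7 FPKM in db/db 3, 4 and 5. For retinal pigment epithelium (5 of 6 markers) it was 338 FPKM against 97.1 to 154 FPKM and 61.9 to 159.5 FPKM. Ganglion cells (4 of 4, 322 FPKM against 183 to 227 in the other 8), red blood cells (2 of 3, 54.2 against 11.2 to 20.2), endothelium (3 of 3, 18.3 against 6.72 to 10.3), horizontal cells (2 of 3, 20.3 against 12.8 to 15.2) and Müller glia (4 of 4, 863 against 740.0 to 850.2) were also highest there. As a share of the library total, however, the Müller glia sum of db/db 1 was below those of db/db 3, 4 and 5. Amacrine cells (4 of 4, 72.0 against 103 to 106) and bipolar cells (4 of 4, 133 against 160 to 179.8) were lowest. Cones (4 of 4), lens (3 of 5) and plasma and other immune cells (1 of 4) lay within the range of the others, with Lim2 of the lens and Ptprc of the immune list under 0.1 FPKM in every library. No marker was at 0 throughout. Apart from that library, Müller glia were at 825 to 850.2 FPKM in db/db 3, 4 and 5 against 740.0 to 794 FPKM in wild type, and horizontal cells at 12.8 to 14.1 FPKM against 14.2 to 15.2 FPKM. The part of these differences in the results was not tested, and the main results are given with and without that library.

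Proteins that enter the endoplasmic reticulum are folded by the chaperones BiP (Hspa5) and GRP94 (Hsp90b1), by the lectins calreticulin (Calr) and calnexin (Canx), which hold glycoproteins, and by disulfide isomerases. Misfolded proteins are sent back to the cytosol and degraded. When unfolded proteins accumulate, the sensors IRE1 (Ern1), ATF6 (Atf6) and PERK (Eif2ak3) induce chaperone and degradation genes through the factors XBP1, ATF6 and ATF4. In the retina the pathway is known above all from photoreceptors, which fold large amounts of membrane protein in this compartment.

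Many chaperone promoters carry the endoplasmic reticulum stress element, ERSE, made of CCAAT and CCACG with 9 bases between, through which ATF6 and XBP1 act together with NF-Y. RefSeq promoter windows (GRCm38.p6, the assembly also named mm10, 250 bases before to 50 after a start) were matched by symbol for 35 of the 40 members (all but Manf, Hyou1, Sil1, Derl1 and Atf6) and searched on both strands for exact letters. An ERSE was found in 9 of the 35 (25.7%), 8 of them chaperone genes and 1 a degradation gene. Over all genes 37 of 27025 (0.137%) have one, 39 of 32851 windows (0.119%). The sites of all 9 are shown because 5 of these genes (Hsp90b1, Calr, Canx, Pdia6 and Dnajc3) passed as lower without db/db 1 below. Hspa5, Creld2, Ero1lb and Syvn1 did not pass. In that fit 5.84% of all genes were lower. Pdia3 and Dnajb11 also passed with no ERSE found, although Dnajb11 has a related element, ERSE-II, described below. Manf passed but had no window to search. Whether the element goes with the change was not tested. Capitals mark the element and lower case the bases between and beside it. Sites are written 5′ to 3′ on the strand of the gene, and an element in reverse orientation reads CGTGG first and ATTGG last.
Hspa5: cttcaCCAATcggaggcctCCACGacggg
Hsp90b1 upstream: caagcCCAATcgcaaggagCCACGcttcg
Hsp90b1 downstream: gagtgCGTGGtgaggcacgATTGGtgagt
Calr: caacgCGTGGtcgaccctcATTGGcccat
Canx: attgaCCAATcaccacgctCCACGaagaa
Pdia6: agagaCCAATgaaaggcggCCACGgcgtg
Dnajc3: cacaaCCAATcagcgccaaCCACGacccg
Creld2: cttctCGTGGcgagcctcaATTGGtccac
Ero1lb: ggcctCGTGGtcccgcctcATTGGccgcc
Syvn1: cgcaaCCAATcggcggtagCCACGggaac

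The Hspa5 site lies 65 to 47 bases before the RefSeq start (chr2:34772020-34772048, plus strand), which GENCODE M21 places within the first exon, since its start of Hspa5 is further upstream. All distances here are from RefSeq starts. These differ from the GENCODE M21 gene starts for several of the genes, Hsp90b1, Pdia6 and Dnajc3 among them. Hsp90b1 has a pair of sites, 212 to 194 bases (chr10:86705633-86705661, minus strand) and 107 to 89 bases before its RefSeq start (chr10:86705528-86705556), in opposite orientations. The Calr site (chr8:84847070-84847098, minus strand) is 162 to 144 bases and the Canx site (chr11:50325795-50325823, minus strand) 145 to 127 bases before the start. Those of Pdia6 (chr12:17266486-17266514, plus strand) and Dnajc3 (chr14:118937822-118937850, plus strand) are 98 to 80 and 105 to 87 bases before it. In Creld2 (chr15:88819515-88819543), Ero1lb (chr13:12565677-12565705) and Syvn1 (chr19:6046527-6046555), all on the plus strand, the element lies 126 to 108, 201 to 183 and 44 to 26 bases before the start. The related ERSE-II, made of ATTGG and CCACG with 1 base between, was found in Herpud1 and Dnajb11 (2 of 35, against 0.0444% of all genes). In Dnajb11 it lies after the start and is not printed. The XBP1 element TGACGTGG was found in Txndc5 (1 of 35, against 0.714%), and the ATF4 element TTGCATCA in Herpud1 and Chac1 (2 of 35, against 1.03%). TGACGTGG holds the reverse complement of CCACG, so that these searches are not independent, but none of the printed sites overlap. The Herpud1 window holds both of its elements upstream of the start and is shown because it has elements of both the ATF6 and XBP1 branches and of ATF4. Its ERSE-II is at chr8:94386372-94386392 and its ATF4 element at chr8:94386312-94386329, both on the plus strand.
ERSE-II of Herpud1: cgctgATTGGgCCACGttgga
ATF4 element of Herpud1: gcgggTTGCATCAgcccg

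Hsp90b1 was the member that passed the test with all 9 libraries, and 8 chaperone and folding genes passed as lower once db/db 1 was left out, while Hspa5 did not pass. With all 9 libraries 1 of 39 members (2.56%) was lower in db/db and 0 were higher at an adjusted p under 0.05 (limma on log2(FPKM + 1), Benjamini-Hochberg over all 14588 genes), against 0.267% and 0.233% of all genes. At an unadjusted p under 0.05, 8 members (20.5%) were lower and 3 (7.69%) higher, against 9.91% and 9.36% of all genes. Without db/db 1, 8 members (20.5%) were lower and 0 higher, against 5.84% and 4.72% of all genes. These were Hsp90b1, Calr, Canx, Pdia3, Pdia6, Manf, Dnajb11 and Dnajc3. The median log2 change of the 39 members was -0.07 with all libraries and -0.11 without db/db 1, beside 0.0035 and -0.02 for all tested genes. Of the members 24 had a negative and 15 a positive change with all libraries, and 27 and 12 without db/db 1.

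**Figure D1:**
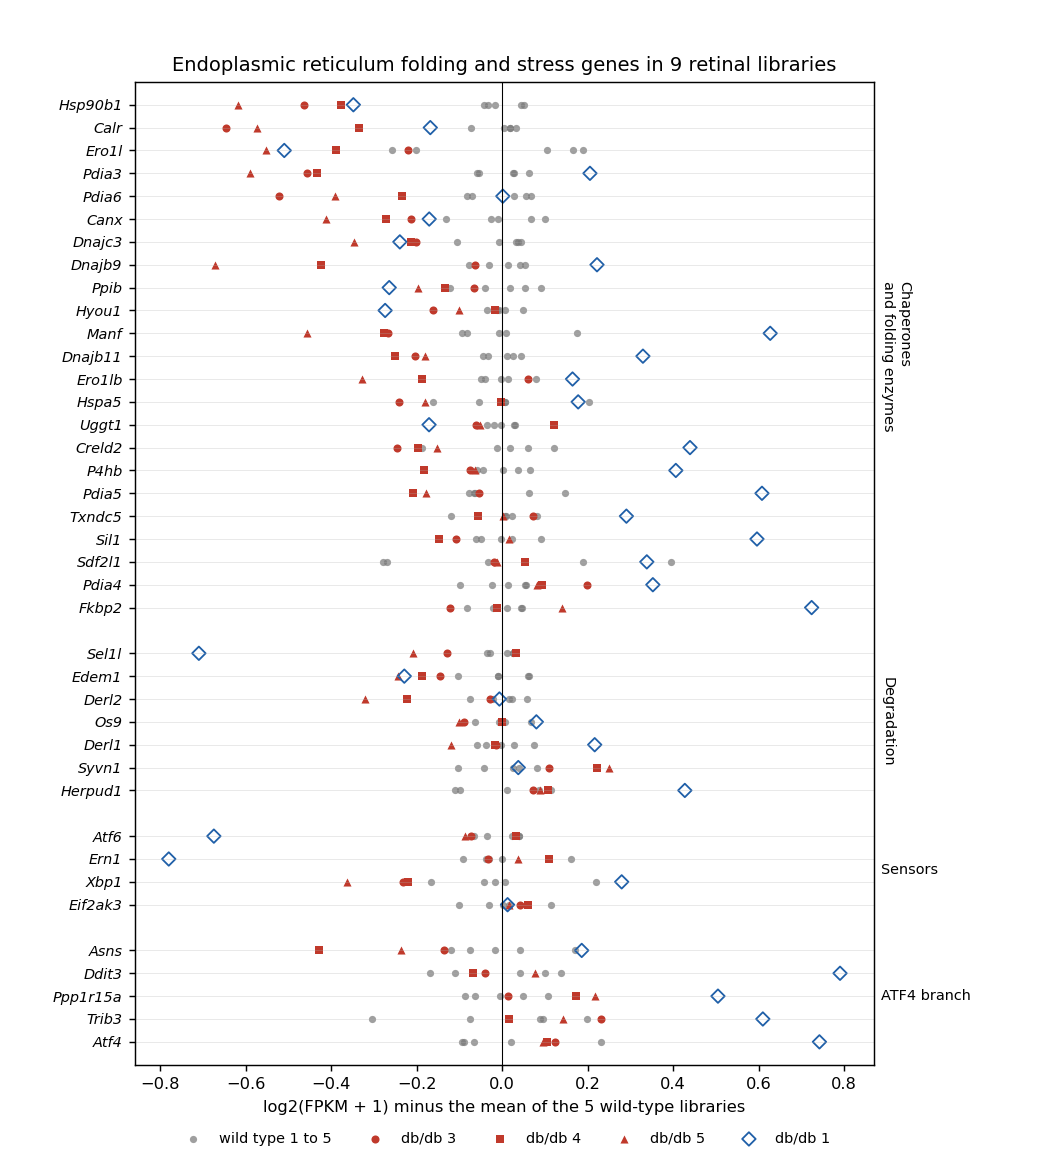
Each row is 1 of the 39 members, grouped by role, and each point is 1 library, placed on the x axis by its log2(FPKM + 1) minus the mean of the 5 wild-type libraries. Most chaperone rows have db/db 3, 4 and 5 (red) to the left, and db/db 1 (blue diamond) is the highest of the 9 libraries in 21 rows and the lowest in 6.

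The summed level of the 23 chaperone and folding genes was 742, 715, 733, 725 and 711 FPKM in wild type 1 to 5. In db/db 3, 4 and 5 it was 589, 621 and 575 FPKM, below every wild-type library, and in db/db 1 it was 768 FPKM, above all of them. These sums are not scaled to the total FPKM of each library. That total was 311179 in db/db 1 and 263052 to 268139 in wild type. The place of db/db 1 above wild type holds only for unscaled sums. As a share of that total, the db/db 1 sum was below those of all wild-type libraries. The sums also weigh abundant genes most, such as Calr, at a mean of 142 FPKM over all libraries. The sums of the 7 degradation genes were 141 to 152 FPKM in wild type, 142 to 150.2 FPKM in db/db 3, 4 and 5, and 154 FPKM in db/db 1. These ranges of wild type and of db/db 3, 4 and 5 overlapped. The sums of the 4 sensor genes were 50.4 to 55.9 FPKM in wild type, 45.6 to 49.5 FPKM in db/db 3, 4 and 5, and 49.4 FPKM in db/db 1. All 4 db/db sums were below wild type, although each sensor gene by itself overlapped between the groups. Xbp1, the most abundant of the 4, weighs most in these sums. The median log2 deviation of the sensor genes from the wild-type mean was -0.027 to 0.027 in wild type. It was -0.053 to 0.045 in db/db 3, 4 and 5, which overlaps wild type, and -0.33 in db/db 1. Xbp1 was at 21.6, 21.8 and 19.6 FPKM in db/db 3, 4 and 5, against 22.6 to 29.9 FPKM in wild type. In db/db 1 Xbp1 was highest, at 31.2 FPKM, while Atf6 and Ern1 were lowest, at 7.52 and 3.48 FPKM. In bulk tissue fewer cells of a type and less RNA per cell cannot be told apart.

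Hsp90b1 encodes GRP94, the HSP90 of the endoplasmic reticulum (ENSMUSG00000020048, chromosome 10, 86690209 to 86705509, minus strand, GRCm38). It stood at 68.2, 69.5, 72.8, 68.6 and 72.5 FPKM in wild type 1 to 5 and at 55.02, 50.7, 53.9 and 45.4 FPKM in db/db 1, 3, 4 and 5. All 4 db/db libraries were below all 5 wild-type libraries, db/db 1 among them. The means were 70.3 ± 2.18 FPKM (SD, n = 5) and 51.3 ± 4.29 FPKM (SD, n = 4). By limma the change was -0.45 on the log2 scale with an SE of 0.068 (adjusted p = 0.0419). Without db/db 1 the change was -0.49 (adjusted p = 0.00843). The call was lost with GC correction of all 9 libraries (-0.36, adjusted p = 0.0748) and without the filter on low genes (adjusted p = 0.0767). When each library was left out in turn it passed only without db/db 1, and in the other 8 fits the adjusted p was 0.0645 to 0.144. The changes were -0.49 to -0.40 over all 9. Exons of the noncoding Gm15344 overlap Hsp90b1 by 84 bases on the same strand, and reads of both may be shared (mean 6.08 FPKM for Gm15344).

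Calr, the calcium-binding lectin chaperone, was the most abundant member, at 142 FPKM on average (ENSMUSG00000003814, chromosome 8, 84841850 to 84846934, minus strand). Its level was 164, 152, 162, 162 and 160.4 FPKM in wild type 1 to 5 and 142, 102, 127 and 107 FPKM in db/db 1, 3, 4 and 5. The groups did not overlap, and db/db 1 lay between the wild-type libraries and the other 3. The log2 change was -0.43 (SE 0.098, adjusted p = 0.0735) with all libraries and -0.52 (SE 0.068, adjusted p = 0.00843) without db/db 1. Its membrane-bound partner Canx (ENSMUSG00000020368, chromosome 11, 50293961 to 50325673, minus strand) stood at 68.4, 69.1, 74.7, 63.5 and 73.04 FPKM in wild type and at 61.8, 59.9, 57.5 and 52.1 FPKM in db/db. Again the groups were separate, with db/db 1 the nearest to wild type. Its changes were -0.27 (adjusted p = 0.1004) and, without db/db 1, -0.30 (adjusted p = 0.0261). With db/db 1 left out and values corrected for GC content the adjusted p of Canx was 0.0736 and that of Calr 0.0168.

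Pdia3, the disulfide isomerase ERp57 that works on glycoproteins held by both lectins (ENSMUSG00000027248, chromosome 2, 121413775 to 121438687, plus strand), was at 52.98, 52.9, 54.3, 49.9 and 50.03 FPKM in wild type 1 to 5, at 60.1 FPKM in db/db 1, and at 37.6, 38.3 and 34.2 FPKM in db/db 3, 4 and 5. The last 3 were below every wild-type library, while db/db 1 was the highest of all 9. With all libraries the change was -0.32 (SE 0.14, adjusted p = 0.262), and without db/db 1 it was -0.49 (SE 0.05, adjusted p = 0.00538). Uggt1, the sensor glucosyltransferase that returns unfolded glycoproteins to the lectins, had changes of -0.04 and 0.0026 (adjusted p = 0.750 and 0.979), with a 95% interval of -0.12 to 0.12 in the second fit.

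**Figure D2:**
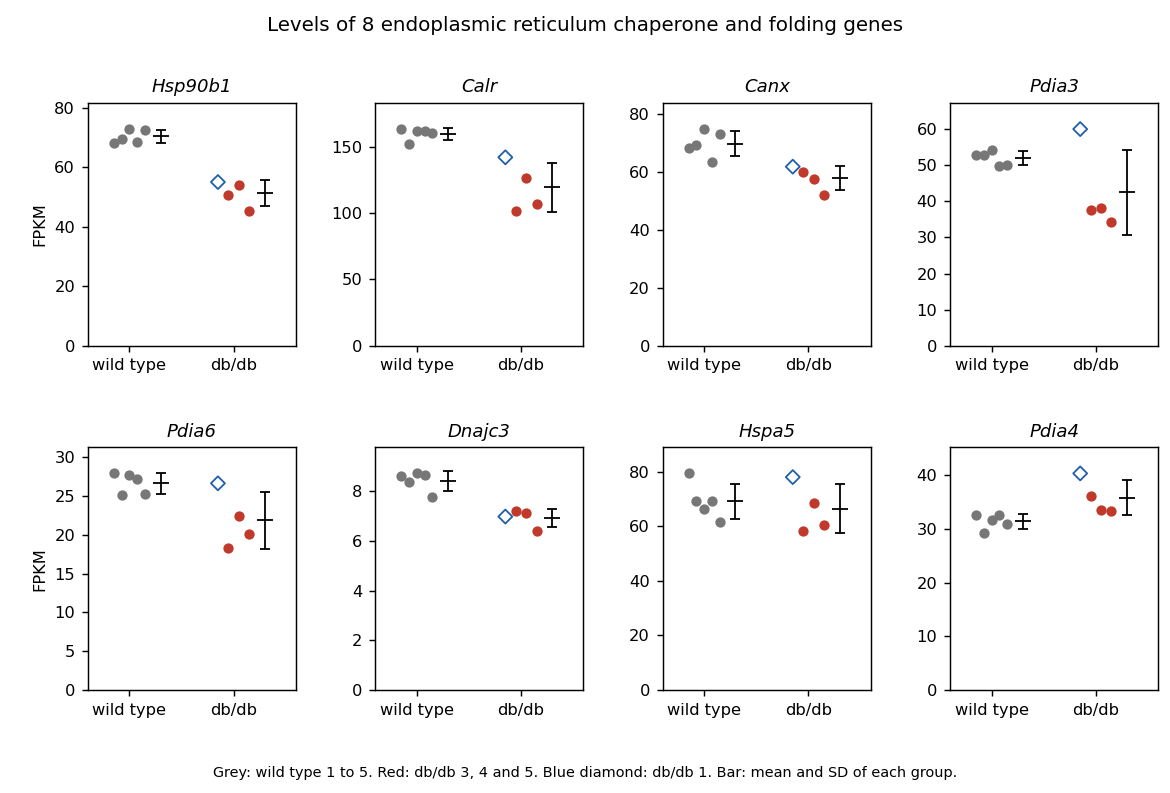
FPKM on the y axis in wild-type (grey) and db/db libraries (red, with db/db 1 as a blue diamond), with mean and SD beside them, for 8 chaperone and folding genes. Hsp90b1, Calr, Canx and Dnajc3 do not overlap between groups, Pdia3 and Pdia6 separate only db/db 3, 4 and 5, Hspa5 overlaps, and Pdia4 is higher in all db/db libraries.

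Hspa5, which encodes BiP, the HSP70 of the compartment and a standard marker of its stress, overlapped between the groups. It was at 79.4, 69.2, 66.2, 69.2 and 61.5 FPKM in wild type and 78.01, 58.1, 68.7 and 60.6 FPKM in db/db. Wild type 1 and db/db 1 were the 2 highest of the 9. Its log2 change of -0.06 had a 95% interval of -0.29 to 0.17 (adjusted p = 0.758), and without db/db 1 the change was -0.14 with an interval of -0.33 to 0.04 (adjusted p = 0.280).

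Among the cochaperones of BiP, Dnajc3, a J-domain protein that also inhibits PERK, was lower in each db/db library. It stood at 8.63, 8.37, 8.71, 8.66 and 7.75 FPKM in wild type and 6.98, 7.19, 7.12 and 6.40 FPKM in db/db, with no overlap and db/db 1 within the range of its group. The change was -0.25 (SE 0.059, adjusted p = 0.0735), and -0.25 without db/db 1 (adjusted p = 0.0262, or 0.0943 once GC content was corrected too). Dnajb11, the J-domain protein ERdj3, was at 17.4, 16.8, 17.6, 17.8 and 16.7 FPKM in wild type, at 21.9 FPKM in db/db 1 and at 14.8, 14.3 and 15.1 FPKM in the other db/db libraries. It fell by 0.21 on the log2 scale without db/db 1 (adjusted p = 0.0191), whereas with all 9 libraries the change was -0.08 (adjusted p = 0.728). Dnajb9 (ERdj4) had -0.23 and -0.39 without passing (adjusted p = 0.427 and 0.0572). The nucleotide exchange factors Hyou1 and Sil1 had -0.14 and 0.09 (adjusted p = 0.262 and 0.746), and Sdf2l1, which assists ERdj3, had 0.09 (adjusted p = 0.758).

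The disulfide isomerases had changes in both directions. Pdia6, which also attenuates sensor signalling, was at 27.9, 25.1, 27.7, 27.2 and 25.3 FPKM in wild type and 26.6, 18.2, 22.5 and 20.05 FPKM in db/db. It was lowest in db/db 3, 4 and 5, and db/db 1 lay within the wild-type range. Its change was -0.29 (adjusted p = 0.171) with all libraries and -0.38 (adjusted p = 0.0158) without db/db 1. Pdia4 (ERp72) was at 32.6, 29.3, 31.7, 32.7 and 30.9 FPKM in wild type and 40.4, 36.2, 33.6 and 33.3 FPKM in db/db. It was the only tested member whose db/db libraries were all above all wild-type ones, but the change of 0.18 (SE 0.071, adjusted p = 0.213) did not pass, nor did that of 0.12 without db/db 1 (adjusted p = 0.131). P4hb, the classical disulfide isomerase, Pdia5 and Txndc5 had 0.02, 0.04 and 0.08, with adjusted p of 0.927, 0.900 and 0.616. The first 2 became -0.11 and -0.15 without db/db 1, and the sign of both also turned with quantile normalization. The oxidase Ero1l, which recharges these enzymes and also responds to hypoxia, had -0.42 (adjusted p = 0.107; 0.0710 without db/db 1), and its paralog Ero1lb had -0.07 (adjusted p = 0.704). The prolyl isomerases Ppib and Fkbp2 had -0.17 and 0.18 (adjusted p = 0.220 and 0.519).

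Manf and Creld2 encode small secreted proteins that are induced by stress of the compartment. Manf (ENSMUSG00000032575, chromosome 9, 106838312 to 106891979, minus strand) was at 7.64, 6.62, 6.70, 6.23 and 6.17 FPKM in wild type, at 10.8 FPKM in db/db 1 and at 5.36, 5.32 and 4.57 FPKM in db/db 3, 4 and 5. Its change was -0.09 (adjusted p = 0.811) with all libraries and -0.33 (adjusted p = 0.0276) without db/db 1. Dcaf1 overlaps its exons on the opposite strand (mean 8.34 FPKM), so that reads of both may not be fully separate. Creld2 had -0.04 (adjusted p = 0.894) and -0.20 (adjusted p = 0.0839). It passed once db/db 1 was left out and GC content corrected as well (change -0.27, adjusted p = 0.0362).

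Groups that do not overlap are common in these data. With all 9 libraries 5 members were separate and lower (Hsp90b1, Calr, Canx, Dnajc3 and Edem1), 12.8% of the 39 against 6.38% of all genes, and 1 was separate and higher (Pdia4), 2.56% against 5.2%. Without db/db 1 the counts were 12 (30.8%) and 2 (5.13%), against 11.5% and 9.63% of all genes. The 12 added Pdia3, Pdia6, P4hb, Manf, Dnajb11, Xbp1 and Asns, and the 2 higher ones were Pdia4 and Syvn1.

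**Figure D3:**
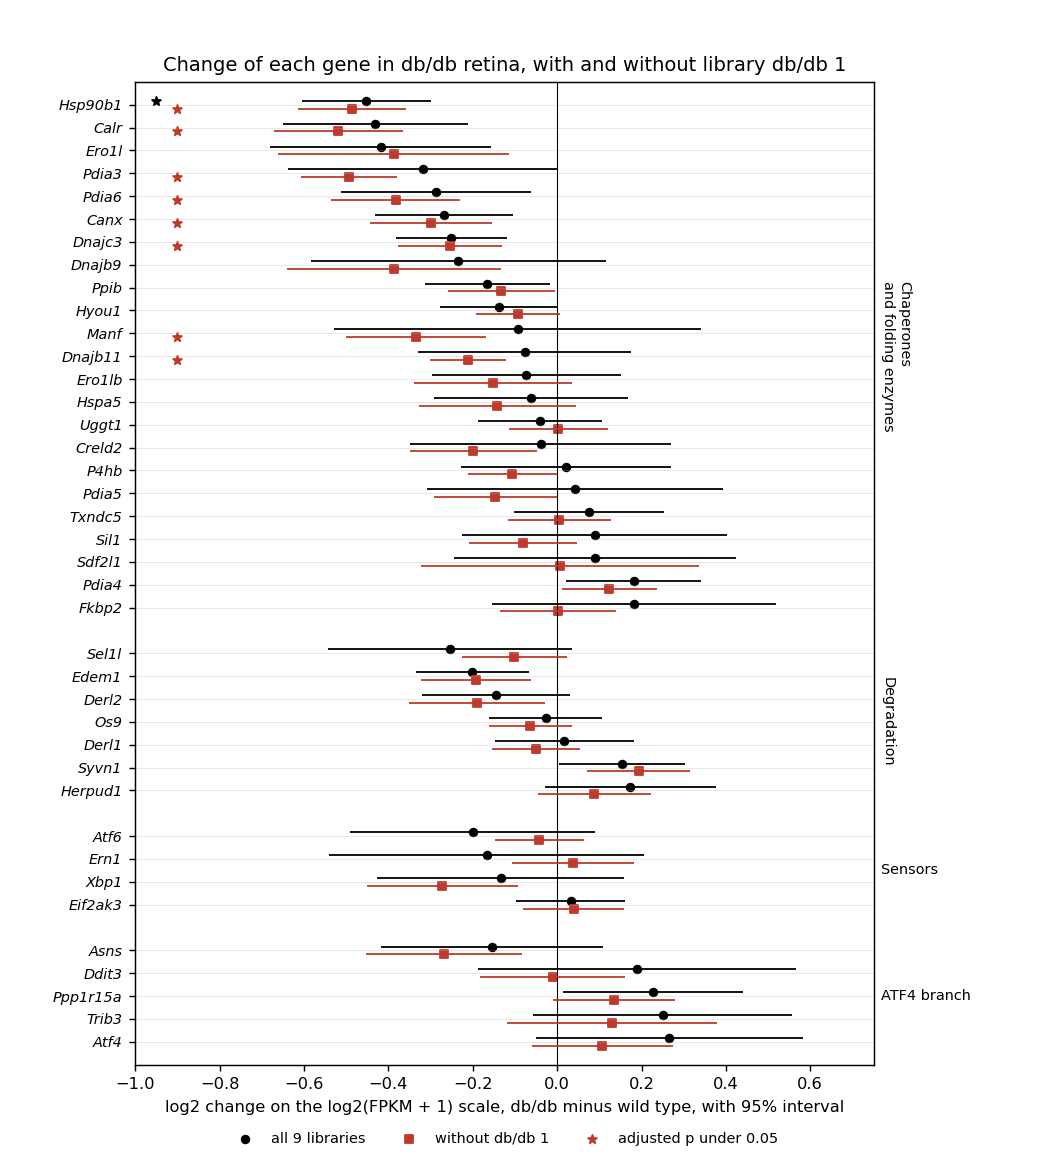
Log2 change (db/db minus wild type, on the log2(FPKM + 1) scale) of each member with its 95% interval, with all 9 libraries (black circles) and without db/db 1 (red squares). Stars at the left mark an adjusted p under 0.05, a black star for all 9 libraries (Hsp90b1 alone) and red stars for the fit without db/db 1 (8 chaperone and folding genes).

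The degradation genes held none that passed, with all libraries or without db/db 1. Os9, a lectin that picks misfolded glycoproteins, was the most abundant of the 7, at 52.3, 50.1, 52.2, 54.97 and 52.7 FPKM in wild type and 55.5, 49.2, 52.4 and 48.8 FPKM in db/db. The groups overlapped, and its change of -0.03 had an interval of -0.16 to 0.11 (adjusted p = 0.821). Sel1l, the scaffold of the HRD1 ubiquitin ligase, was at 19.7, 19.5, 18.9, 18.8 and 19.7 FPKM in wild type and 11.4, 17.6, 19.8 and 16.6 FPKM in db/db. It was the lowest in db/db 1 by a wide margin, and its change moved from -0.25 to -0.10 when that library was left out (adjusted p = 0.312 and 0.248). Syvn1, the HRD1 ligase itself, had 0.15 and, without db/db 1, 0.19 (adjusted p = 0.246 and 0.0524). Mrpl49 overlaps it by 91 bases on the opposite strand at a mean of 51.9 FPKM. The mannosidase-like Edem1 had -0.20 (adjusted p = 0.120), with 2.998 to 3.48 FPKM in wild type and 2.63 to 2.88 FPKM in db/db. The channel components Derl1 and Derl2 had 0.02 and -0.14 (adjusted p = 0.914 and 0.339). Herpud1, a stress-induced partner of HRD1 whose 2 promoter elements are printed above, was at 33.4, 31.7, 29.3, 34.1 and 29.03 FPKM in wild type and 42.6, 33.1, 33.9 and 33.5 FPKM in db/db, with db/db 1 alone above the wild-type range (change 0.17, adjusted p = 0.324).

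Of the sensors none passed. Atf6 was at 12.8, 12.98, 12.3, 11.997 and 12.97 FPKM in wild type, at 7.52 FPKM in db/db 1 and at 11.9, 12.9 and 11.8 FPKM in db/db 3, 4 and 5. Ern1 was at 6.22, 6.54, 6.70, 6.50 and 7.60 FPKM in wild type and 3.48, 6.52, 7.30 and 6.90 FPKM in db/db. For both, db/db 1 was far below the other 8 libraries, whose groups overlapped. Their changes were -0.20 and -0.17 with all libraries (adjusted p = 0.416 and 0.598) and -0.04 and 0.04 without db/db 1 (adjusted p = 0.579 and 0.736). Eif2ak3, which encodes PERK, lay between 6.61 and 7.83 FPKM over all 9 libraries, and its change of 0.03 had an interval of -0.10 to 0.16 (adjusted p = 0.776). Xbp1, whose mRNA IRE1 splices, was at 29.9, 25.7, 24.8, 25.2 and 22.6 FPKM in wild type and 31.2, 21.6, 21.8 and 19.6 FPKM in db/db. It was highest in db/db 1 and lowest in the other 3 db/db libraries, with changes of -0.13 (adjusted p = 0.591) and -0.27 without db/db 1 (adjusted p = 0.0573). A gene total does not separate the spliced from the unspliced form.

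In the ATF4 branch none of the 5 tested members passed, and db/db 1 was the highest library for each of the 5. Atf4, the factor translated when PERK phosphorylates eIF2, was at 96.2, 104, 97.7, 120.3 and 95.8 FPKM in wild type and 172, 112, 110.1 and 109 FPKM in db/db. The other 3 db/db libraries lay within the wild-type range of 95.8 to 120.3 FPKM. Its change was 0.27 (adjusted p = 0.332) with all libraries and 0.11 (adjusted p = 0.359) without db/db 1. Ddit3, the CHOP factor of stress-induced death, was at 19.3, 15.9, 18.5, 19.8 and 16.6 FPKM in wild type and 31.8, 17.4, 17.1 and 18.995 FPKM in db/db. Its change went from 0.19 to -0.01 when db/db 1 was left out (adjusted p = 0.554 and 0.939). Mars overlaps Ddit3 by 68 bases on the opposite strand, at a mean of 29.7 FPKM. A second annotated gene of the name Ddit3 overlaps it by 105 bases on the same strand, and reads of both may be shared. Ppp1r15a (GADD34), which brings a phosphatase to eIF2, had 0.23 (adjusted p = 0.237), and Trib3, an inhibitor of AKT and of ATF4, had 0.25 (adjusted p = 0.343). Asns, asparagine synthetase, was below wild type in db/db 3, 4 and 5, at 8.81, 6.999 and 8.14 FPKM against 8.92 to 11.1 FPKM in wild type, and db/db 1, at 11.3 FPKM, was above all of them. Its change was -0.15 with all libraries (adjusted p = 0.486) and -0.27 without db/db 1 (adjusted p = 0.0666). Chac1, a glutathione-degrading enzyme, fell short of the level threshold and was tested only in the fit without a filter, where 0 members passed. It stood at 0.945, 0.937, 0.884, 0.770 and 0.536 FPKM in wild type and 1.38, 0.988, 1.41 and 1.13 FPKM in db/db. All 4 db/db values were above the 5 wild-type values, on 40 to 104 recovered reads per library. Of all tested genes, which do not include Chac1, 5.2% were separate and higher in the same way.

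**Figure D4:**
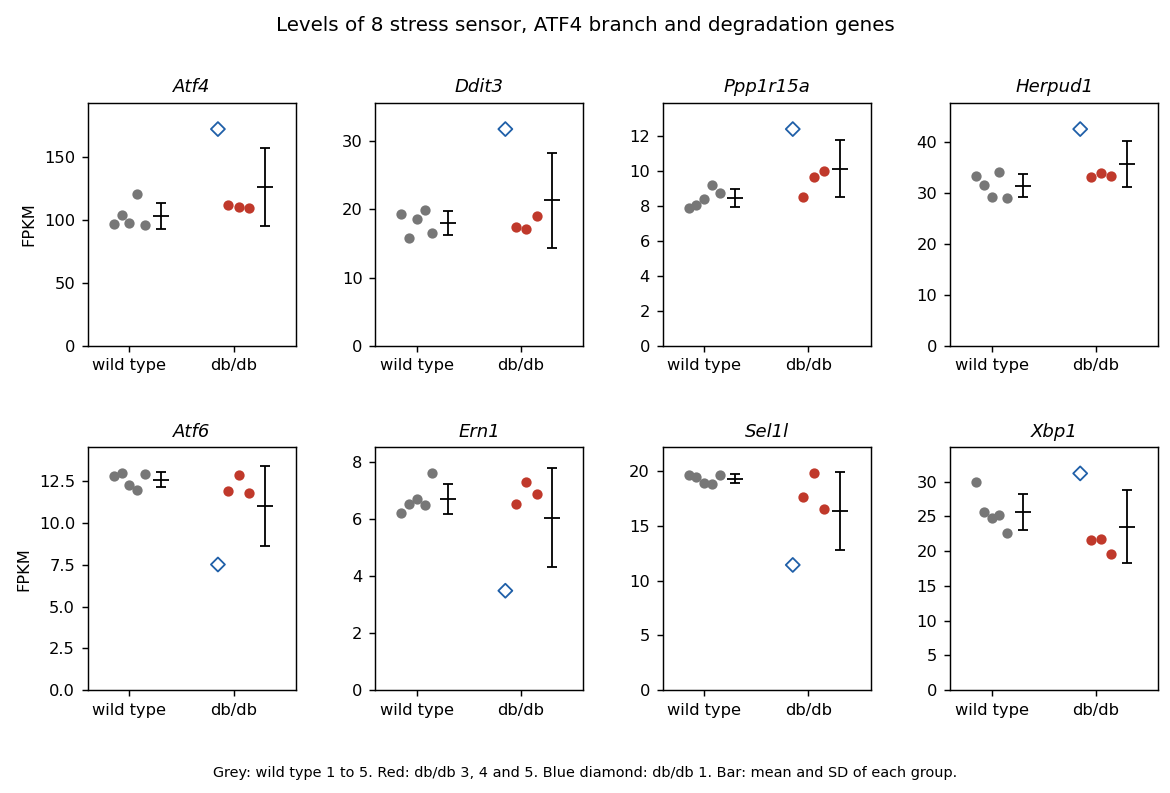
FPKM on the y axis in wild-type (grey) and db/db libraries (red, with db/db 1 as a blue diamond), with mean and SD, for 8 ATF4 branch, sensor and degradation genes. Library db/db 1 lies above the rest for Atf4, Ddit3, Ppp1r15a, Herpud1 and Xbp1 and below them for Atf6, Ern1 and Sel1l.

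Library db/db 1 was the highest of 9 for 21 of 39 members and the lowest for 6, against 41.3% and 30.1% of all tested genes. The shares of the members were 53.8% and 15.4%, so that it was often an extreme library, over the table as well as among the members. Its summed level of the 5 tested ATF4 branch genes was 233 FPKM against 134 to 164 FPKM in wild type, and db/db 3, 4 and 5 lay within the wild-type range at 147 to 150.2 FPKM. Fkbp2 (41.3 FPKM against 23.2 to 25.4 in wild type), Pdia5 (22.3 against 13.5 to 15.9) and Sil1 (9.21 against 5.47 to 6.20) were also well above the other libraries there. In the same library 7 of the 12 unscaled marker sums given above were the highest of the 9.

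Among the 23 chaperone and folding genes 16 had a negative change with all libraries and 18 without db/db 1, with a median of -0.15 in the latter. For the degradation genes that median was -0.06, for the sensors -0.0028 and for the ATF4 branch 0.11. Whether the roles differ was not tested. Among the wild-type libraries the members varied by a coefficient of variation of 2.13% (Sel1l) to 24.4% (Sdf2l1), with a median of 5.26% beside 6.65% for all tested genes.

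GC content moved with the groups. The correlation across genes of each library's deviation from the wild-type mean with transcript GC content was -0.12 to 0.13 in wild type and 0.18, 0.20, 0.29 and 0.50 in db/db 1, 3, 4 and 5, and genes are not independent replicates. Without db/db 1 the median change of all genes ran from -0.17 in the lowest of 10 bins of GC content to 0.10 in the highest. With correction for GC content and db/db 1 left out, 7 members (17.9%) were lower, against 2.34% of all genes, and 6 of these were among the 8 of the uncorrected fit. Calr had -0.52 there (adjusted p = 0.0168), Pdia3 -0.44 (0.00743), Hsp90b1 -0.37 (0.0166) and Pdia6 -0.36 (0.0281). Manf and Dnajb11 also passed, and Canx and Dnajc3 did not. With the correction and all 9 libraries 0 members were lower, against 0.00685% of all genes, and Hsp90b1 had -0.36 (adjusted p = 0.0748).

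**Figure D5:**
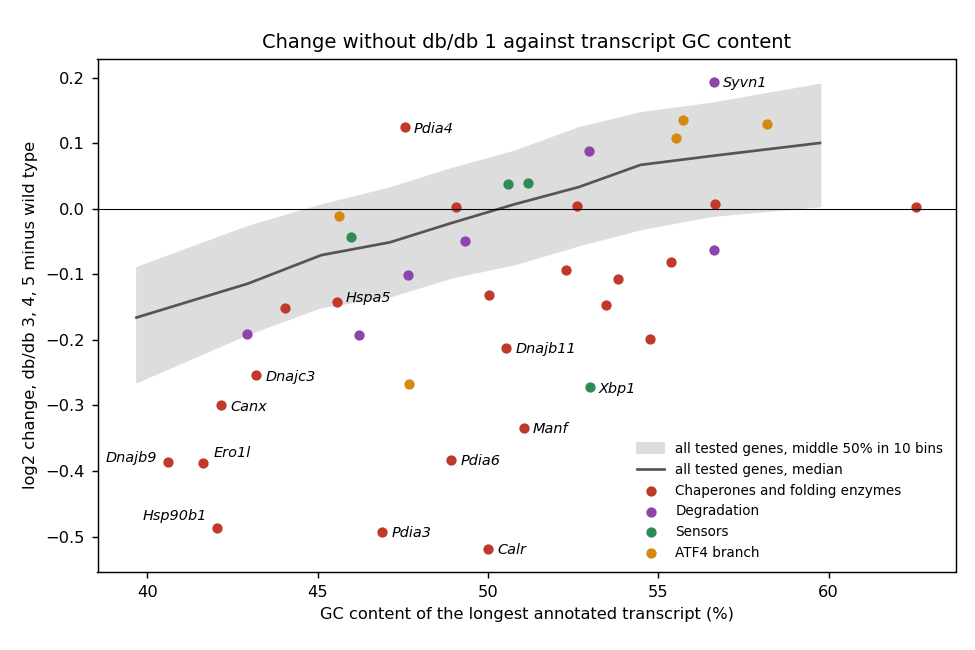
Log2 change of the 39 members without db/db 1 (y axis, db/db 3, 4 and 5 minus wild type) against the GC content of the longest transcript in percent (x axis), coloured by role, over the median (line) and middle quartiles (grey band) of all tested genes in 10 bins. Pdia3 and Pdia6 lie below the band at a GC content of 46.9 and 48.9%, as does Calr to their right. Hsp90b1, Canx and Dnajc3 also lie below it, at 42.1 to 43.2%, where the band itself is below 0.

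Genes of the same compartment outside the 40 were read from 5 further lists. None of 26 translocon and glycosylation genes passed, with all libraries or without db/db 1, and their medians were 0.05 and -0.05. Mogs, the glucosidase that starts glycan trimming, and the translocon subunit Ssr1 had the smallest p there (changes 0.28 and -0.15, adjusted p = 0.156 and 0.213). Of 28 measured further folding and cargo genes 0 passed with all libraries and 3 fell without db/db 1, where 5.84% of all genes were called lower. These were Lman1, a cargo receptor for glycoproteins (18.2 ± 0.680 FPKM (SD, n = 5) and 15.1 ± 1.31 FPKM (SD, n = 4) over all libraries, change -0.19 without db/db 1, adjusted p = 0.0287), Clgn, a calnexin homolog (-0.27, adjusted p = 0.0343), and Dnajc10, a disulfide reductase (-0.23, adjusted p = 0.0189). None of 20 further degradation genes passed in either fit (Ube2g2 0.18 and Edem3 -0.32, adjusted p = 0.272 and 0.287), nor did any of 12 further sensors and eIF2 regulators (Creb3l2 -0.34 and Rtcb 0.24, adjusted p = 0.151 and 0.261).

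Of 19 measured further targets of ATF4, 0 passed with all libraries, and 3 rose and 0 fell without db/db 1, where 4.72% of all genes were called higher. Nupr1, a stress-induced chromatin protein, was at 1.51 ± 0.163 FPKM (SD, n = 5) in wild type. In db/db it averaged 3.92 ± 1.89 FPKM (SD, n = 4), with a change of 0.90 (adjusted p = 0.0735) and of 0.67 without db/db 1 (adjusted p = 0.0137). Slc3a2, the heavy chain of amino acid transporters, had 0.31 (adjusted p = 0.112) and 0.22 (adjusted p = 0.0356). Shmt2, the mitochondrial serine hydroxymethyltransferase, had 0.25 without db/db 1 (adjusted p = 0.0454). The median of this list was 0.14 with all libraries and 0.08 without db/db 1. Dnajc10 and Shmt2 were named after their values were seen.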

How the data were processed

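Total RNA of mouse retina was made into mRNA libraries, 1.3 ug per library per the labels, and 5 wild-type and 4 db/db libraries were analysed. The deposited table holds FPKM that the authors computed per Ensembl gene, with the build mm10 named in the submitters' processing notes. How reads were aligned and counted, with which annotation and whether by strand, is not given in the sources used here. Columns named Control and DR were read as wild type and db/db with the same numbers, an inference from the names. Gene symbols, positions (GRCm38, the assembly of mm10) and the exon lengths and GC content came from GENCODE M21, which named 34499 of 35397 genes.

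Values were analysed as log2(FPKM + 1) for the 14588 genes with a mean of 1 FPKM or more, with limma 3.58.1 in R 4.3.3 (lmFit, eBayes with trend), all 9 libraries and no covariate. Changes are db/db minus wild type on that scale, which understates changes of low genes, and p-values were adjusted by Benjamini-Hochberg over all tested genes with a threshold of 0.05. Intervals of a change are 95% intervals of this model. Whole reads were recovered from FPKM and exon length. Between 99.1% and 99.2% of low values came out whole within 0.1 read, which gave 36.6 to 47.9 M reads per library. Of these low values 64.1% to 68.0% were even numbers, so the recovered reads may not all be separate fragments. Limma-voom on these reads was 1 of 20 alternatives. The correction for GC content used the 99.3% of tested genes with a GC value and 20 bins. The fit was tested on simulated data.

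The members and gene lists were chosen with earlier results of these data known. One list of cell type markers is not reported here. All 40 symbols are named. Values per library are given for members past the threshold with all libraries or without db/db 1, and for the most abundant member and the one with the largest change of each role. Those of Hspa5, Pdia4, Herpud1, Ern1, Ddit3, Asns and Chac1, and the promoter sites, were chosen for display after values were seen. Of other genes those past the threshold with all libraries, or else the 2 with the smallest p, are named in each list. Replicate numbers were not used to pair libraries, since libraries of the same number did not deviate together (correlations of -0.18 to 0.13).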

Additional observations from a re-analysis of the deposited data

Results flagged for a closer look

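In 9 of 80 groups of members' values (39 tested members and Chac1, in wild type and in db/db) the highest or lowest library stood apart from the rest by more than Dixon's 95% critical ratio. Chance alone gives about 1 in 20 such groups, and members share the same libraries. In 8 of the 9 the library was db/db 1.

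Among the folding genes, Pdia3 was at 60.1 FPKM in db/db 1 and at 34.2 to 38.3 FPKM in the other db/db libraries. Pdia5 was at 22.3 FPKM there against 12.2 to 13.7 FPKM, and Dnajb11 at 21.9 FPKM against 14.3 to 15.1 FPKM. The secreted factors Manf and Creld2 were at 10.8 and 28.5 FPKM, against 4.57 to 5.36 FPKM and 17.4 to 18.6 FPKM. The degradation gene Herpud1 was at 42.6 FPKM against 33.1 to 33.9 FPKM. In the ATF4 branch, Atf4 was at 172 FPKM against 109 to 112 FPKM, and Ddit3 at 31.8 FPKM against 17.1 to 19.0 FPKM. The remaining value was that of Calr in wild type 2, at 152 FPKM, below the 160.4 to 164 FPKM of the other wild-type libraries.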

How the results depend on the processing

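Leaving out db/db 1 raised the members lower from 1 to 8. Over all fits that left out 1 library the range was 0 to 8, with 3 to 688 genes higher and 1 to 852 lower (34 and 39 with all 9), and a median change of the members of -0.11 to -0.022. Array weights gave 7 members (550 genes higher, 656 lower, median -0.11), quantile normalization 2 (median -0.12), GC correction 0 (5 and 1 genes), and GC correction without db/db 1 gave 7 (374 and 341 genes, median -0.12). Without a filter 0 members passed (7 and 2 genes), a filter at a mean of 5 FPKM left 17 and 13 genes, and limma-voom on the recovered reads gave 64 genes lower. With the replicate number as a block, 0 members (Hsp90b1 adjusted p = 0.428) and 2 and 0 genes passed, and 1600 genes had an unadjusted p under 0.05. The numbers do not pair the libraries, and no db/db library correlated best with its own number other than number 5. No member was higher under any of the 20 alternatives.

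Of the members' own changes 36 values under an alternative reversed in sign and 709 kept sign and side of the threshold, while 20 came to pass and 11 no longer did. Over the fits that left out 1 library the sign turned for Pdia5 (-0.15 to 0.13), P4hb (-0.11 to 0.090), Manf (-0.33 to 0.028), Creld2 (-0.20 to 0.030), Ero1lb (-0.15 to 0.012), Sil1 (-0.081 to 0.17), Uggt1 (-0.095 to 0.0026), Derl1 (-0.050 to 0.062), Ern1 (-0.26 to 0.037) and Ddit3 (-0.011 to 0.28), on leaving out db/db 1 except for Manf and Ero1lb (db/db 5) and Creld2 (db/db 3 or 4). With GC correction and without db/db 1 it turned for Pdia5 (-0.19), P4hb (-0.17), Txndc5 (-0.025), Sdf2l1 (-0.081), Fkbp2 (-0.11), Sil1 (-0.15), Uggt1 (0.017), Derl1 (-0.035), Atf6 (0.015) and Ern1 (0.036), and with GC correction alone for Pdia5 (-0.017), P4hb (-0.057), Sdf2l1 (-0.029), Ero1lb (0.014), Sil1 (-0.017) and Eif2ak3 (-0.00024). Array weights turned Pdia5 (-0.11), P4hb (-0.11), Sil1 (-0.062), Uggt1 (0.010), Derl1 (-0.035) and Ern1 (0.014), and quantile normalization Pdia5 (-0.0044), P4hb (-0.089) and Derl1 (-0.041). None of the values with a turned sign passed. The cause of these changes was not tested. The recovered reads limit Chac1 most, with as few as 40 in a library.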
